A study of Homo sapiens with 4 samples.

Results

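The liver X receptor (LXR) and cholesterol efflux genes examined here are 8 genes: the receptors NR1H2 and NR1H3, the transporters ABCA1 and ABCG1, the lipoprotein receptor SCARB1, the apolipoprotein APOE, the ubiquitin ligase MYLIP and the cholesterol esterifying enzyme SOAT1. They were chosen by gene name. Every gene probe carrying 1 of these names on the array was taken, which gave 9 probes of 34127, for 8 of 27274 gene names. ABCA1 had 2 probes and each of the others had 1, and every probe was printed as 1 spot.

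Transcripts were profiled by 1-colour Agilent arrays in the human prostate cancer lines LNCaP and PC3. LNCaP is a line whose growth depends on androgen, and PC3 is one whose growth does not. Both were grown in RPMI medium with fetal bovine serum, and each gave 1 untreated culture (control) and 1 that received 10 µM atorvastatin (ATO) for 24 h. ATO is a statin, a drug that inhibits HMG-CoA reductase and so lowers the synthesis of cholesterol. The methods state that ATO was dissolved in DMSO, whereas in the labels the controls are untreated, with no mention of a vehicle. There was 1 array in each of the 4 groups, so no difference within a line has a replicate check and precision is limited by how few arrays there were. In RNA from whole cultures, fewer cells that express a gene and less RNA per cell cannot be told apart.

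LXRs are nuclear receptors that bind oxysterols, oxidised forms of cholesterol, and act as heterodimers with retinoid X receptors (RXR) on DNA elements made of a repeated hexamer. Their known targets carry cholesterol out of the cell (ABCA1, ABCG1), take part in lipoprotein transport (APOE), and limit its uptake (MYLIP, which marks lipoprotein receptors for degradation). In prostate cells, as elsewhere, this arm works against the cholesterol synthesis and uptake that the sterol regulatory element binding proteins (SREBP) raise when sterols are low.

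The element searched for was the DR4, a repeat of AGGTCA with 4 bases between the copies (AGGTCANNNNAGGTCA, both strands, at most 1 mismatch in each copy). RefSeq windows of 300 bases, 250 of them before the annotated start (GRCh38.p14), were held for 6 of the 8 genes, in 11 windows; none was held for ABCG1 or SCARB1. A match was found in 1 gene, ABCA1, and 1.38% of all 35116 windows hold one. No member had an exact match, and 0.0199% of all windows do. The 250 bases before the ABCA1 start, at chr9:104928156-104928405 on the minus strand, are printed because this is the member window with the match, which stands in capitals at -69 to -54 from the start.

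ABCA1 upstream: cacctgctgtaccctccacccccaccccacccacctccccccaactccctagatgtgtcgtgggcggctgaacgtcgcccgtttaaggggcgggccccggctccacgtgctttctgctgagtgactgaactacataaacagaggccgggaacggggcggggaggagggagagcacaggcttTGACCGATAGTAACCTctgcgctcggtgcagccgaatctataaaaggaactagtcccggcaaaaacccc

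Read on the other strand, the match is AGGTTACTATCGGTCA, with the substitutions C5T and A11C, counted from 1 at the 5′ end of the motif. The same window held an E-box (CACGTG, which reads the same on both strands) at -147 to -142; 7.26% of all windows hold one. It also held 3 GC boxes (GGGCGG, both strands), a motif found in 45.0% of windows, and 1 window each of MYLIP and NR1H3 held 3 as well. None of the matches printed for ABCA1 overlapped another. The sterol response core TCACCCCAC, searched on both strands, was in no member window and in 0.43% of all windows. Such matches describe letters in a window. Binding was not measured.

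Levels are given as processed intensities in the units of the scanner files. Ratios are log2 differences after each array was divided by its own 75th percentile (496.8 and 532.6 units for control and ATO in LNCaP, 588.2 and 568.9 in PC3). The error beside a ratio is the scanner software's own estimate for the spots, carried through the ratio. It covers the reading of a spot and not the spread between cultures. As a second gauge, probes printed 10 times on each array had ratios whose copies had a typical SD of 0.19 in LNCaP and 0.21 in PC3 between 50 and 300 units, and of 0.09 and 0.10 between 1000 and 10000 units. A difference in a line was counted at 1.5-fold or more, and one between the control arrays at 2-fold or more. A probe not well above background on 1 of the arrays compared has a bound only. Levels of different probes are not compared with each other.

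Between 48.5% and 52.9% of gene spots were well above background, and none was saturated. Line markers fell on the side of their labels. TMPRSS2 was 17.5-fold higher in LNCaP control, whereas CAV1 was at least 382-fold, CD44 at least 229-fold and VIM 151-fold higher in PC3 control. Of 4 markers of other cell types (PTPRC, COL1A1, PECAM1 and CD68), 3 were well above background in LNCaP control, 2 in LNCaP ATO and 3 in each PC3 array. Their summed level, relative to the 75th percentile, was 0.937, 0.562, 1.87 and 3.09 in that order. This sum adds different probes and includes spots not well above background. Between the LNCaP arrays PTPRC went from 215 to 20.4 units, while COL1A1 (76.1 and 85.5) and CD68 (168 and 182) did not fall. In PC3, CD68 read 829 and 1227 units, PECAM1 147 and 389, and COL1A1 111 and 121. PTPRC, which defines leukocytes, rested on 1 of its 5 probes and was well above background in LNCaP control only. Sterol-responsive INSIG1, which holds SREBP in the endoplasmic reticulum and is an SREBP target, read 2317 units in LNCaP control and 6460 in LNCaP ATO (log2 ratio 1.38), and 913 and 1973 in PC3 (1.16).

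**Figure D1:**
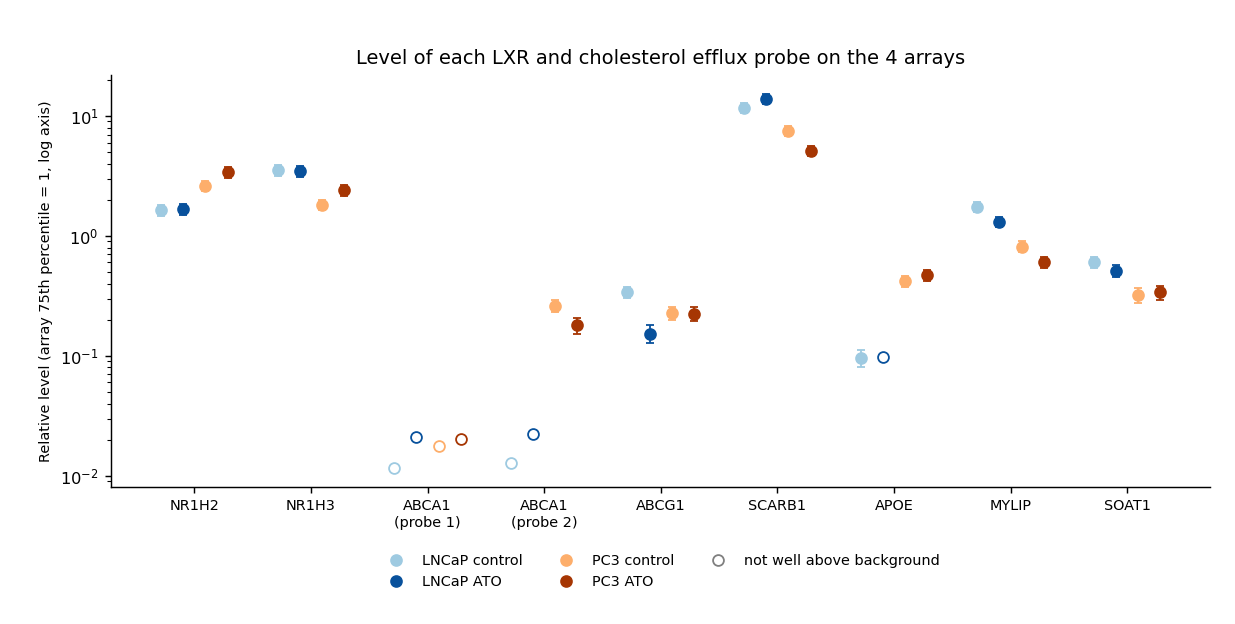
Level of each member probe on the 4 arrays, relative to the 75th percentile of its array (log axis), with the scanner software's error estimate as bars and 1 array per group. Open circles are spots not well above background, which have no ordered level and no bar; ABCA1 probe 1 is open on all 4 arrays and probe 2 is filled in PC3 only. Points are to be compared within a probe, not between probes.

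After ATO, 1 of the 8 genes passed 1.5-fold in LNCaP and none passed it in PC3. ABCG1 fell 2.23-fold in LNCaP and had a log2 ratio of -0.01 in PC3. MYLIP was lower in both lines by nearly the same amount, 1.33-fold in LNCaP and 1.35-fold in PC3, short of the threshold. ABCA1 could be measured in PC3 only, where it read 1.46-fold lower. Neither receptor gene passed the threshold in either line, except that NR1H3 did in PC3 under 50th percentile scaling.

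In LNCaP, 7 members had a value, 6 measured on both arrays and 1 as a bound. Of these, 0 were counted higher and 1 was counted lower. Over all 13739 genes, 2.77% were higher and 1.99% lower. The median ratio of the 6 measured members was -0.13, and that of all 12236 genes measured on both arrays was 0.01 (SD over genes 0.24). In PC3, all 8 members were measured, 0 of them past the threshold in either direction, where 8.20% of 13815 genes were higher and 10.3% lower. Their median was 0.04 and their ratios ran from -0.55 to 0.41, against a median of 0.01 (SD 0.44) over 12513 genes.

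Taking both lines together, limma with the cell line as a block (two-sided, Benjamini-Hochberg adjustment, 1 residual degree of freedom) could test 7 members. None passed an adjusted p of 0.05, and neither did any of the 11902 genes tested (0.00%). The smallest adjusted p over all genes was 0.762, and 532 genes (4.47%) had an unadjusted p under 0.05, 1 of them a member, MYLIP. The residual of this fit is the difference between the ratios of the lines. The variance of each gene is also drawn toward a value that limma estimates over all genes tested. The SE and p therefore rest on how far LNCaP and PC3 differ in their ratios, in the gene and over all genes. They do not rest on the spread between cultures. For MYLIP, whose ratios differed by -0.02 between the lines, the SE of 0.13 came largely from the pooled value.

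**Figure D2:**
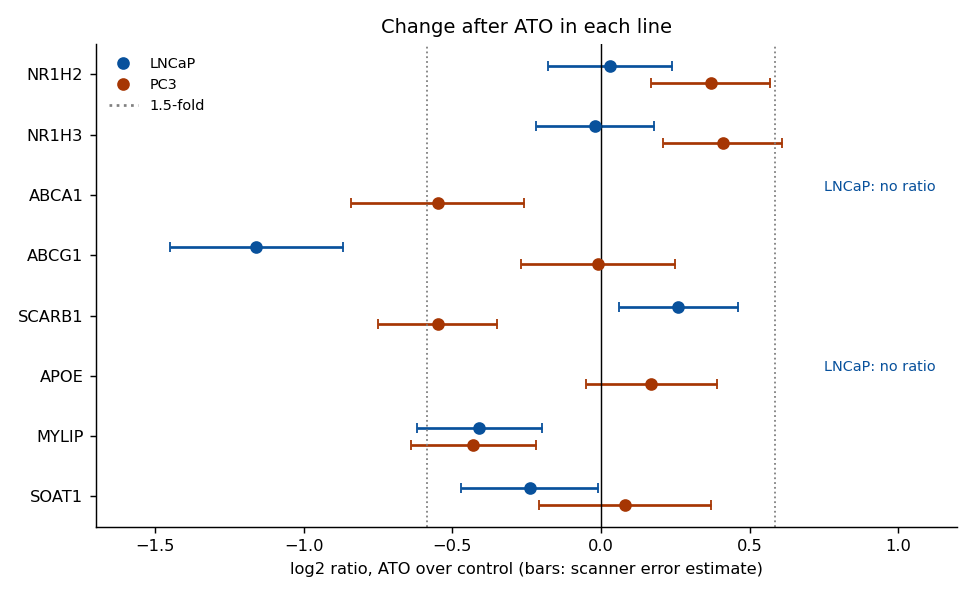
Log2 ratio of ATO over control for each member in LNCaP and PC3, 1 array per group, with the scanner software's error estimate as bars and dotted lines at 1.5-fold. ABCG1 in LNCaP, at -1.16, is the only point beyond a dotted line, and the MYLIP points of both lines lie together at -0.41 and -0.43.

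NR1H2 encodes LXRβ, the form present in most tissues. Its probe (hg18 chr19:55574141-55574200, plus strand) read 812.8 units in untreated LNCaP and 888.1 after ATO, and 1547 units in untreated PC3 and 1932 after ATO. Both PC3 arrays were above both LNCaP arrays. The ratio to control was 0.03 (error 0.21) in LNCaP and 0.37 (error 0.20) in PC3, both within 2 errors of no change, and the LNCaP value turned to -0.04 with another background correction (normexp). The control of PC3 was 1.61-fold above that of LNCaP, below the 2-fold threshold but more than 2 errors from 0 (log2 difference 0.68, error 0.20). Both statements depended on the scaling. The difference was 0.24 with the 50th percentile, within 2 errors, and 1.19 with spike-in scaling, past 2-fold.

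NR1H3 encodes LXRα, the form known from liver, fat and macrophages, and its probe lies at hg18 chr11:47246797-47246856 on the plus strand. In LNCaP it read 1749 units in the control and 1844 after ATO, and in PC3 1066 and 1369. Here the order of the lines was the reverse of that of NR1H2, with both LNCaP arrays above both PC3 arrays. The ratio was -0.02 (error 0.20) in LNCaP and 0.41 (error 0.20) in PC3, and the LNCaP sign turned under spike-in scaling (0.14). With 50th percentile scaling the PC3 ratio was 0.60, past 1.5-fold, where the median of all genes tested was 0.19. PC3 control was 1.94-fold below LNCaP control, just short of the threshold (log2 difference -0.96). It was -1.40 with the 50th percentile, past 2-fold, and -0.45 with spike-in scaling. Under limma the mean ratio over both lines was 0.20 (SE 0.16) for NR1H2, adjusted p = 0.762, and 0.19 (SE 0.17) for NR1H3, adjusted p = 0.777.

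ABCA1 moves cholesterol and phospholipid from the cell onto lipid-poor apolipoprotein A-I. Its probes lie 80.2 kb apart on the minus strand. Probe 1 (hg18 chr9:106663833-106663892) read 5.76 and 11.2 units in LNCaP (control, then ATO) and 10.4 and 11.5 in PC3, none of them well above background, so it gives no order and no ratio. Probe 2 (chr9:106583525-106583584) read 6.33 and 11.8 units in LNCaP, not well above background, and 154 and 101.9 in PC3, where it was. The probes thus disagreed in PC3, where only probe 2 detected the transcript.

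By probe 2, ABCA1 was at least 4.76-fold higher in PC3 control than in LNCaP control. That bound depended on the processing: it was 2.25 on the log2 scale, but 1.81 with the 50th percentile and 1.36 with normexp. No fold change can be given for LNCaP. In PC3 the ratio was -0.55 (error 0.29, 1.89 times the error), a level 1.46-fold lower after ATO, and 8.34% of 12513 genes lay lower. It passed 1.5-fold only under spike-in scaling (-0.66) and had no value when the median over its probes was taken. ABCA1 did not enter the limma fit, which needs a probe well above background in the controls of both lines or after ATO in both lines.

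ABCG1 moves cholesterol to mature high density lipoprotein (HDL). Its probe (hg18 chr21:42589853-42589912, plus strand) read 170 units (error 17.9) in the LNCaP control and 81.7 (error 13.7) after ATO, against 133.2 (error 17.1) and 128 (error 16.7) in PC3. LNCaP control was the highest and LNCaP ATO the lowest of the 4, with the PC3 arrays between them and within 0.01 of each other on the log2 scale. The step from PC3 ATO to LNCaP ATO (0.55, error 0.31) was within 2 errors. PC3 control minus LNCaP control was -0.60, but -0.09 under spike-in scaling. The LNCaP ratio was -1.16 (error 0.29), 4.06 times its error, and only 0.188% of 12236 genes had a lower one. The PC3 ratio was -0.01 (error 0.26), and its sign turned to positive with the 50th percentile, quantile normalization and normexp.

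The difference between the ABCG1 ratios, PC3 minus LNCaP, was 1.15 (error 0.39), 2.95 times its error. With 1 array per group, it was not tested against the spread between cultures. The LNCaP ratio was -0.71 with normexp, a move larger than its error of 0.29. It lay between -1.18 and that value under the 8 other ways of processing the intensities and past 1.5-fold under each. Of these, the median over probes, no filter and leaving out bright local backgrounds could not change it. ABCG1 has 1 probe, well above background on all 4 arrays and in no bright local background. Its 81.7 units in LNCaP ATO stood near 54.7, the lowest intensity well above background on that array. The spot lay in the upper part of the array, where 1.22% of single spots differed by 1.5-fold in LNCaP against 4.52% in the lower part, its local background was 112 units in LNCaP control and 88 in LNCaP ATO, and it carried no outlier call. PTPRC moved the same way, with 215 units in LNCaP control and 20.4 (not well above background) in LNCaP ATO on that 1 probe, while the macrophage marker CD68 read 168 and 182. Its part in the ABCG1 value was not tested. Over both lines the mean ABCG1 ratio was -0.58 (SE 0.33; limma, adjusted p = 0.762).

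Across the 4 arrays, the genes whose centred log2 values were closest to those of ABCG1 among 11015 genes were DYNLL2 (Euclidean distance 0.23), SPC25 (0.27) and DDX59 (0.28). Their LNCaP ratios were -0.98, -0.83 and -0.92. With 4 arrays this likeness is a description only. For ABCA1 no such list was made, since it was not well above background on all 4.

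SCARB1 encodes SR-BI, the HDL receptor through which cells take up cholesteryl ester and also exchange free cholesterol. Its probe (hg18 chr12:123828178-123828237, minus strand) read 5808 units in the LNCaP control and 7440 after ATO, and 4420 units in the PC3 control and 2924 after ATO. The LNCaP arrays were again above the PC3 arrays, but ATO lay above control in LNCaP and below it in PC3. The ratio was 0.26 (error 0.20) in LNCaP, within 2 errors of 0, and -0.55 (error 0.20) in PC3, 2.68 times its error and 1.46-fold lower. The difference, PC3 minus LNCaP, was -0.80 (error 0.29), and no test of it was possible with these arrays. The directions held under the 8 other settings, with PC3 between -0.66 and -0.35 and LNCaP between 0.23 and 0.42. As for ABCG1, the median over probes, no filter and leaving out bright local backgrounds could not change these values. The mean over both lines was -0.15 (SE 0.25; limma, adjusted p = 0.875).

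APOE, the apolipoprotein that accepts cellular cholesterol and is a ligand for lipoprotein receptors, was measured by a probe at hg18 chr19:50104430-50104489 on the plus strand. In LNCaP it read 47.8 units in the control and 52.3 after ATO (not well above background), and in PC3 245.5 and 266.6. PC3 control was 4.34-fold above LNCaP control (log2 difference 2.12, error 0.27). With normexp the log2 difference was 1.19, still past 2-fold. The change after ATO was 0.17 (error 0.22) in PC3, within its error, and no fold is given for LNCaP because the bound was under 1-fold.

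MYLIP, also called IDOL, is a ligase that sends lipoprotein receptors to the lysosome. Its probe (hg18 chr6:16256388-16256447, plus strand) read 869 units in untreated LNCaP, 698.9 after ATO, 479.6 in untreated PC3 and 343.8 after ATO. All 4 levels were more than 2 errors from their neighbours in that order. The ratio was -0.41 (error 0.21) in LNCaP and -0.43 (error 0.21) in PC3, about 2 errors from 0 in each, and the difference between the lines was -0.02 (error 0.29). In LNCaP 2.71% of genes had a lower ratio and in PC3 12.6%.

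Over both lines the mean MYLIP ratio was -0.42 (SE 0.13, 95% confidence interval -0.80 to -0.05), lower in both lines, with an unadjusted p of 0.0354 and an adjusted p of 0.762 by limma. It therefore failed the correction, and its adjusted p lay between 0.646 and 1 under the other settings. The unadjusted p was also over 0.05 with the 50th percentile (0.146), with no filter on dim probes (0.171) and with spike-in scaling (0.253). The sign was negative under each of them, with ratios from -0.43 to -0.25 in LNCaP and from -0.54 to -0.24 in PC3. Of its known substrates VLDLR and LRP8, LRP8 stayed under 1.5-fold in both lines (0.07 and 0.32), as did VLDLR in LNCaP (0.19), the line where it was measured.

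SOAT1 esterifies cholesterol for storage in lipid droplets. Its probe (hg18 chr1:177590947-177591006, plus strand) read 300.8 and 272.2 units in LNCaP (control, then ATO) and 187.9 and 192 in PC3. The LNCaP arrays were above the PC3 arrays, and control and ATO lay within 2 errors of each other in both lines (-0.24, error 0.23, and 0.08, error 0.29). Spike-in scaling turned the PC3 value to -0.03. This spot lay in row 526 of 532, in a band where 14.6% of single spots differed by 1.5-fold in LNCaP and 23.8% in PC3. In the upper part of the array the shares were 1.22% and 14.1%. The local background of the SOAT1 spot in LNCaP ATO was 187 units against a median of 100.5 for the array. The part of that background in the LNCaP value was not tested.

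Before treatment, 3 of the 8 genes differed at least 2-fold between the lines. ABCA1 and APOE were counted higher in PC3 control, 2 of 8, where 20.6% of 15237 genes were, and MYLIP was counted lower (2.15-fold), 1 of 8, where 19.0% were. The median of the 7 measured members was -0.64 against -0.12 for all genes measured. NR1H2 was the other measured member with a higher level in PC3, while NR1H3 (1.94-fold), SOAT1 (1.90-fold), SCARB1 (1.56-fold) and ABCG1 (1.51-fold) were lower. No sign of a member turned under another setting, but scaling shifted the whole comparison: the median over the genes tested was 0.38 under spike-in scaling and -0.49 under the 50th percentile. The count of lower members was 0 under the first and 5 under the second.

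**Figure D3:**
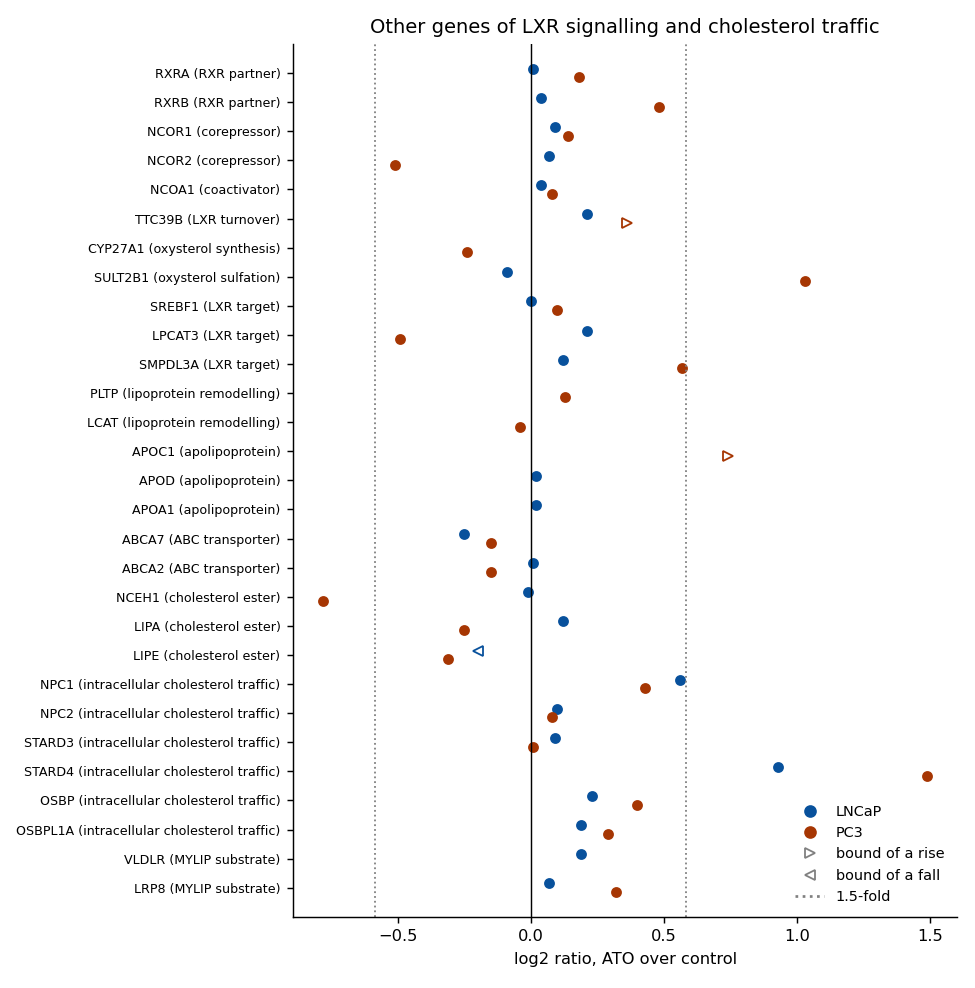
Log2 ratio of ATO over control for other genes of LXR signalling and cholesterol traffic that had a value in at least 1 line, with their role in brackets, 1 array per group. Filled circles were well above background on both arrays, open triangles are bounds, and dotted lines mark 1.5-fold; STARD4 lies beyond the right line in both lines, and NCEH1 lies beyond the left line in PC3.

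A wider list of 43 genes of LXR signalling and cholesterol traffic was on the array in full. In LNCaP, 27 had a value, 2 of them higher and 0 lower at 1.5-fold, with a median of 0.09 over the 25 measured, where 2.77% and 1.99% of all genes were counted. In PC3, 28 had a value, 4 higher and 2 lower, with a median of 0.09 over the 26 measured, where the shares of all genes were 8.20% and 10.3%. By limma 24 could be tested, with 0 under an adjusted p of 0.05 and 4 under an unadjusted p of 0.05, against 4.47% of all genes tested. STARD4, a carrier of cholesterol between membranes, was higher in both lines. It read 115 and 236 units in LNCaP (1.91-fold) and 79.3 and 215 in PC3 (2.81-fold).

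The RXR partners did not pass the threshold. RXRA had ratios of 0.01 in LNCaP and 0.18 in PC3, and RXRB of 0.04 and 0.48. SREBF1, which encodes SREBP-1 and is induced by LXR, had ratios of -0.00 and 0.10.

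Further genes were counted in PC3. SULT2B1, which sulfates cholesterol and oxysterols, read 292 and 578 units (2.05-fold higher), and 297 and 298 in LNCaP (ratio -0.09). APOC1, an apolipoprotein encoded beside APOE, was at least 1.67-fold higher, at 16.4 units (not well above background) and 84.1. NCEH1, a hydrolase of cholesteryl ester, fell from 5516 to 3115 units (1.71-fold) and read 272 and 290 in LNCaP. SULT2B1, APOC1 and NCEH1 each had a bright local background on at least 1 array, and the part of it in these values was not tested. Without genes in such backgrounds, the count of higher genes in PC3 was 2. Of the 3 genes of oxysterol synthesis on the list, CH25H and CYP46A1 were not well above background on any array. CYP27A1 was measured in PC3 only, at 1041 and 850 units.

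**Figure D4:**
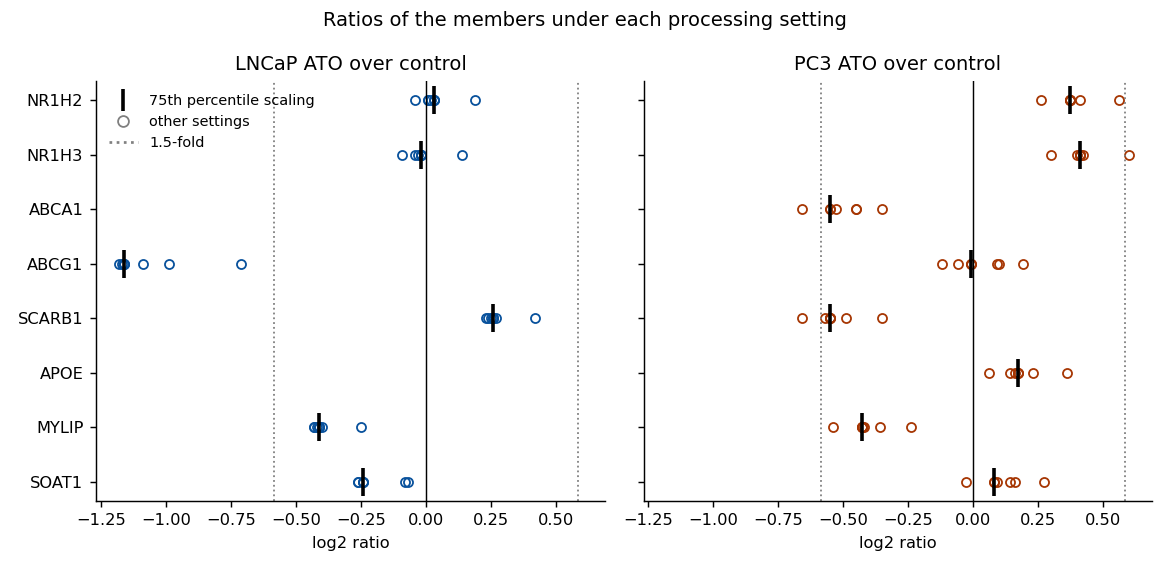
Log2 ratio of ATO over control for each member in LNCaP (left) and PC3 (right) with 75th percentile scaling (black bars) and with each other scaling, background correction or probe rule (open circles), 1 array per group, dotted lines at 1.5-fold. ABCG1 in LNCaP stays left of the dotted line in every setting, its highest value being -0.71, and MYLIP stays below 0 in both lines. For a gene with 1 probe, the median over probes could not move the value.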

How the data were processed

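Expression was measured on Agilent Human 4x44K v2 arrays, all 4 on 1 slide and in 1 scan, with 1 array per group, so array position and group cannot be told apart. The authors obtained spot intensity values on a linear scale with Agilent Feature Extraction 9.5.3.1, per the file headers, with background subtracted and a trend over the slide removed. The table they deposited holds a ratio for each probe, made with GeneSpring GX per the methods, and was used as an alternative only. Its lowest value was 0.03.

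The log2 of the processed intensity was scaled to the 75th percentile of the probes on each array, and outlier spots were left out. A probe was taken as well above background by the software's own call (over 50% of spots where it was repeated), and each gene by its brightest probe. A probe dim on 1 array was given a bound against the lowest intensity well above background there, or its own value if higher. Differences were counted at 1.5-fold in a line and 2-fold between controls. Within a line there is no p-value. The test over both lines was limma 3.58.1 in R 4.3.3 (lmFit and eBayes, cell line as a block), adjusted over all genes tested, and was tested on simulated data.

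Alternatives were the 50th percentile, quantile and spike-in scaling, normexp (offset 50), the deposited ratios, the median over probes, no filter, genes in bright local backgrounds left out (over 3 scaled median absolute deviations above the array's median), other thresholds and, for limma, an intensity trend. The members, the wider list and the thresholds were chosen with earlier results of these data known. Named genes were all members, genes of the wider list past 1.5-fold in either line, RXRA and RXRB, the 3 genes most like ABCA1 or ABCG1, and INSIG1. Some genes are not reported here. Others are named as examples chosen after their values were seen. The files give probe coordinates on hg18; whether they fall in an exon or UTR is not given in the sources used here. Promoter windows are RefSeq's on GRCh38.p14.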

Additional observations from a re-analysis of the deposited data

Results flagged for a closer look

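For 3 members the ratio of ATO over control had opposite signs in LNCaP and PC3. With 1 array per group these differences were not tested. SCARB1 was higher after ATO in LNCaP (0.26) and lower in PC3 (-0.55), a difference, PC3 minus LNCaP, of -0.80 (error 0.29 from the scanner software). Both directions held under the other settings, of which not all could change them. NR1H3 had -0.02 and 0.41, a difference of 0.43 (error 0.29), with an LNCaP value well inside its error. SOAT1 had -0.24 and 0.08, a difference of 0.32 (error 0.37), which is smaller than its own error.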

How the results depend on the processing

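No sign of a member's difference was reversed among values past a threshold, and 157 of 179 alternative values moved by less than their error. That number includes settings that could not change a value, such as the median over probes for a gene with 1 probe. Counts that moved by over 1.5 times, and smaller moves where named, were as follows. In LNCaP, 1 was higher with no filter on dim probes (0 before) and 2 were lower at a looser fold threshold (1 before). In PC3 (0 in both directions before), 1 was higher with the 50th percentile and 2 at the looser one, and 2 were lower with spike-in scaling and 3 at the looser one. Between controls, lower members numbered 5 with the 50th percentile, 2 with quantile normalization, 0 with spike-in scaling and 0 at 4-fold (1 before), and higher members 1 with the median over probes and 3 with spike-in scaling (2 before). In the wider list, LNCaP had 16 higher with no filter, 3 with spike-in scaling and at the looser threshold, 0 higher at 2-fold and 1 lower at the looser one (2 higher and 0 lower before). PC3 had 8 higher with the 50th percentile, 6 with quantile normalization, 3 at 2-fold, 9 with no filter, 2 without bright local backgrounds and 9 at the looser one (4 before), and 0 lower with the 50th percentile, 4 with spike-in scaling, 0 at 2-fold and 4 at the looser one (2 before). The scaling itself moved the median of all genes in PC3 to 0.19 (50th percentile) and -0.12 (spike-in), and in LNCaP to 0.16 (spike-in). Otherwise the cause was not tested. Over all genes, limma passed 115 with spike-in scaling and 5 with the 50th percentile against 0, none of them a member. Replicate numbers pair no arrays, since each group has 1, and the limma fit over both lines already compares ATO with control within each cell line. Values under 27.4 to 54.7 units, the lowest intensities well above background, give bounds only.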
